A study of Bos taurus with 3 samples.

Results

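The cells described here are the MEOX1 and ALDH1A1 high stromal cells of a bovine peripheral blood culture, 303 of the 3033 stromal cells read from that culture. They were chosen by a rule on their own counts. Every barcode of the blood library with at least 7489 unique molecular identifiers (UMIs, the tags that count single RNA molecules) was taken as a cell, and cells with 0.02% or more of their UMIs in the macrophage genes TYROBP, FCER1G and AIF1 were left out. Each cell was then scored by the mean of log1p(UMIs per 10000) over MEOX1, ALDH1A1, MDFI, IGFBP5 and ADAMTS1. The top 10% by this score are the members, and the other 2730 cells are the comparison. The levels of the 5 genes therefore chose the members, and differences in other genes of the same cells follow that choice. All values below are descriptions of 1 library, with no test.

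The study read mesenchymal stromal cells (MSCs, labelled cell type MSC) grown from adipose tissue (AT-MSC), bone marrow (BM-MSC) and peripheral blood (PB-MSC) of 1 healthy Holstein-Frisian cow in its first lactation. All 3 cultures are labelled WT with treatment None, and the medium of all 3 was DMEM (low glucose) with FBS at 30%, P/S and L-glutamine, kept until colonies could be seen. Each tissue gave 1 library (10x Genomics 3′ v3.1), so no group has a replicate, every value comes from 1 animal and 1 culture, and intervals cover counting error only. The 3 libraries held 18561 cells at their UMI minimums.

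MEOX1 is a homeobox transcription factor best known from the somites, the paraxial mesoderm that gives rise to the vertebral column, ribs and axial muscle. ALDH1A1 oxidises retinaldehyde to retinoic acid, the ligand of the retinoic acid receptors, and its activity is widely used to sort progenitor cells. MDFI holds back myogenic basic helix-loop-helix (bHLH) factors, IGFBP5 binds insulin-like growth factors and the matrix, and ADAMTS1 is a secreted protease that cleaves proteoglycans such as versican. None of the 5 is by itself the marker of a single stromal cell type.

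The blood library held 98016815 UMIs, against 99356868 for adipose tissue and 106322567 for bone marrow. Of the 3192 blood barcodes at the UMI minimum, 159 did not meet the macrophage-gene limit. The libraries shared few cell barcodes, 4 between blood and adipose tissue and 10 between blood and bone marrow. Doublets were not removed. Members were somewhat shallower than the other blood cells, with a lowest, median and highest UMI total of 7908, 21012 and 69296 against 7588, 25217 and 135484. At an equal depth of 7489 UMIs, members held a median of 2566 genes and the others 2491. Mitochondrial genes took a median of 2.94% of UMIs in members and 2.74% in the others.

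The members were stromal by their markers. Of 19 stromal markers, 15 reached 50 CPM (UMIs of a gene per 1000000 UMIs of the group), and the 19 together took a median of 2.5% of a member's UMIs (lowest 1.46%, highest 7.16%) against 3.27% in the other cells (1.35 to 7.28%). VIM, the intermediate filament of mesenchymal cells, read 15381 CPM in members and 15064 CPM in the others. The MSC surface proteins CD44, NT5E (CD73) and ENG (CD105) read 233, 152 and 107 CPM in members and 209, 149 and 72.8 CPM in the others, while THY1 (CD90) was low in both, at 7.62 and 4.0 CPM.

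Markers of macrophages, endothelium, skeletal muscle, epithelium and lymphocytes were near 0 in the members. For macrophages this follows in part from the rule, which limits TYROBP, FCER1G and AIF1 of that list in every cell. The 16 macrophage markers summed to 19 CPM in members and 34.8 CPM in the other cells (0 to 0.0184% and 0 to 0.0920% of a cell's UMIs), and CD163, C1QB, LYZ, PTPRC, ITGAM and CD86 had 0 UMIs in members. The endothelial list of 13 genes summed to 7.48 CPM, with TIE1, SELE, SELP, CLDN5, ESAM and EMCN at 0 UMIs. The skeletal muscle list of 12 genes summed to 2.58 CPM, and the myogenic factors MYOD1, MYF5, MYF6 and MYOG and the satellite cell factor PAX7 had 0 UMIs. The lists for epithelial cells (11 genes) and for T, B and NK cells (14 genes found) summed to 0.680 and 0.816 CPM. Of the 13 pericyte and smooth muscle markers, RGS5, MCAM, ABCC9, KCNJ8, HIGD1B, MYH11 and DES had 0 UMIs, while the list summed to 316 CPM in members and 458 CPM in the others through CSPG4 and ACTA2 mainly. The tendon list summed to 953 and 751 CPM, with SCX, TNMD, THBS4 and KERA at 0 UMIs in members.

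The score had no gap at the threshold. The lowest member scored 0.683 and the highest other cell 0.681, and 106 cells lay within 0.05 of the threshold. The median score was 0.860 in members and 0.155 in the others, of which 510 scored 0. The members are thus the upper end of a range and not a separate group by this score.

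**Figure D1:**
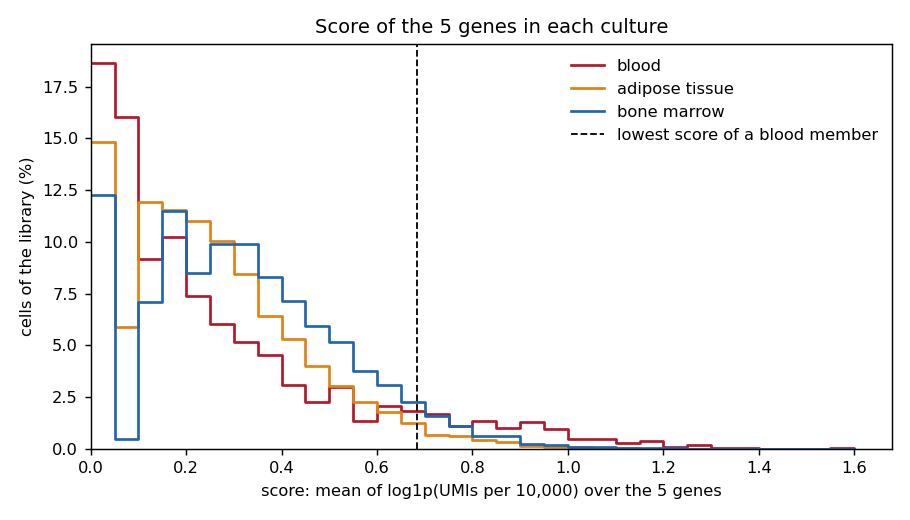
Distribution of the 5-gene score (x axis, mean of log1p of UMIs per 10000) as the percentage of stromal cells of each library (y axis), with the lowest score of a blood member as a dashed line. Blood has the lowest median score (0.179, against 0.225 in adipose tissue and 0.301 in bone marrow) and the highest single cell (1.55, against 1.11 and 1.26), and 2.68% of adipose and 5.47% of bone marrow cells lie at or past the line.

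Each of the 5 genes was found in most or many members, and none in all. MEOX1 (ENSBTAG00000015751) had a lowest, median and highest value of 0, 1.61 and 13.3 per 10000 UMIs in members and 0, 0 and 10.1 in the others. ALDH1A1 had 0, 1.44 and 8.09 in members and 0, 0 and 7.48 in the others. MDFI had 0, 0.554 and 4.55 in members and 0, 0 and 2.94 in the others. For all 3 the ranges overlapped, since some members held none and some other cells held much. IGFBP5 had 0, 4.25 and 36.9 per 10000 UMIs in members and 0, 0 and 21.5 in the others. ADAMTS1 had 0, 0.342 and 7.51 in members and 0, 0 and 5.40 in the others, the smallest member median of the 5. Summed over cells, members and others read 211 and 24.9 CPM for MEOX1, 168 and 32.6 CPM for ALDH1A1, and 77.7 and 12.4 CPM for MDFI. IGFBP5 read 573 and 86.9 CPM and ADAMTS1 71.7 and 17.2 CPM.

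In droplets, free RNA gives UMIs in cells that do not make a gene, so shares of cells were set beside 91 blood cells with at least 0.1% of UMIs in the 3 macrophage genes (median 10142 UMIs), all thinned to 7489 UMIs. MEOX1 was found in 63.4% of members (95% Clopper-Pearson interval 57.7 to 68.8%), 11.5% of the others and 3.30% of the macrophage-gene cells. Without thinning the shares were 85.1%, 27.2% and 5.49%. IGFBP5 was found in 91.1%, 29.5% and 6.59% of thinned cells in the same order, MDFI in 41.3%, 8.21% and 1.10%, and ADAMTS1 in 34.3%, 9.71% and 2.20%. ALDH1A1 was found in 64.7% of members and 16.4% of the others, but in 23.1% of the macrophage-gene cells. For ALDH1A1 the share in the other cells was thus not above that in the macrophage-gene cells. Whether those cells make ALDH1A1 or hold it as free RNA was not tested. The member shares are fixed by the rule and are given as a description.

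To see whether each gene followed the other 4, each was left out of the score in turn: 303 cells were chosen by the other 4 genes and the gene left out was read. MEOX1 was 5.10 times higher in such cells than in the rest (154 against 30.1 CPM, 95% interval of the ratio 4.75 to 5.48). The ratio was 4.41 for MDFI (3.94 to 4.93), 3.58 for ALDH1A1 (3.32 to 3.85), 2.78 for IGFBP5 (2.65 to 2.91) and 2.30 for ADAMTS1 (2.04 to 2.58). In adipose tissue the same ratios were 1.52 for MEOX1, 1.18 for ALDH1A1, 1.40 for MDFI, 1.27 for IGFBP5 and 1.11 for ADAMTS1. In bone marrow they lay between 0.886 for ADAMTS1 and 1.25 for ALDH1A1, with MEOX1 at 0.955 (0.872 to 1.04). The 5 genes lead 1 cluster of these same blood cells and were picked together, so higher ratios in blood follow from that choice and are no evidence of a difference between libraries. The cells differed in depth between libraries, with medians of 24926 UMIs in blood, 14391 in adipose tissue and 9111 in bone marrow, and the difference between libraries was not tested.

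The members were not alike in how they reached the score. IGFBP5 was the highest of the 5 genes in 188 members, MEOX1 in 62, ALDH1A1 in 37, ADAMTS1 in 12 and MDFI in 4. All 5 genes were found in 89 members (29.4%), 4 in 145 and 3 or fewer in 69. Members with 3 or fewer genes reached the score mainly through IGFBP5, which read 1056 CPM in them against 326 CPM in members with all 5. They also differed in genes outside the score. EHD4 read 146 CPM in members with 3 or fewer of the genes, 244 CPM with 4 and 273 CPM with 5. SFRP4 read 504, 69.7 and 136 CPM in the same order, and COL3A1 950, 352 and 403 CPM. The 3 groups had median depths of 19406, 20552 and 24231 UMIs. In EHD4, SFRP4 and COL3A1 the members whose score rested on few genes were thus nearest to the other blood cells.

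Among the close relatives of the 5 genes, the pattern did not extend to most family members. MEOX2, the paralog of MEOX1, had 8 UMIs in members and 376 in the others and was 4.45-fold lower in members (95% interval 2.24 to 10.4). ALDH1A3, which also makes retinoic acid, read 7.89 CPM in members and 18.8 CPM in the others (2.39-fold lower, 1.84 to 3.16), and ALDH1A2 had 0 and 10 UMIs. MDFIC, the paralog of MDFI, read 158 and 196 CPM. Among the insulin-like growth factor binding proteins, IGFBP4 was 2.81-fold lower in members (115 against 322 CPM, 2.62 to 3.01), and its median per 10000 UMIs was 0.536 in members and 2.77 in the others. IGFBP6 read 1218 and 1100 CPM. IGFBP2, IGFBP3 and IGFBP7 read 2.18, 2.58 and 4.49 CPM in members and 9.62, 5.0 and 11.5 CPM in the others. ADAMTS5, a protease of cartilage aggrecan, was 3.73-fold lower in members (3.67 against 13.7 CPM, 2.55 to 5.69), and ADAMTS2 read 59.5 and 58.0 CPM.

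Genes of the retinoid pathway differed unevenly. RBP4, the carrier of retinol, was found in 100% of thinned members, 98.3% of the others and 28.6% of the macrophage-gene cells. It read 1144 CPM in members against 766 CPM in the others (ratio 1.49, 1.46 to 1.53), just under 1.5-fold. STRA6, the membrane receptor for RBP4, had 19 UMIs in 16 members (2.58 CPM) and 38 UMIs in 36 other cells (0.490 CPM), a ratio of 5.28 (2.87 to 9.38). CYP26B1, which breaks down retinoic acid, read 9.93 and 2.73 CPM (ratio 3.63, 2.75 to 4.76) and was found in 35 members. Of the 4 measured genes of the list of retinoid synthesis, binding and breakdown, 0 were at least 1.5-fold apart in either direction. The receptors RARA, RARG and RXRA read 35.4, 28.6 and 12.4 CPM in members and 33.4, 22.8 and 11.8 CPM in the others. STRA6, CYP26B1 and the low-level genes of the next paragraph were picked from their lists after their values were seen.

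Several patterning factors differed between members and the other cells, most of them at low levels. The lists as a whole did not lean higher. Among genes with at least 5 CPM, the ratio was above 1 for 2 of 4 somite factors, 6 of 17 HOX genes and 7 of 22 patterning factors. PAX1, a factor of the ventral somite (the sclerotome), had 34 UMIs in 32 of 303 members and 48 UMIs in 45 of 2730 other cells, a ratio of 7.47 (4.67 to 11.8). PAX3, a factor of the dorsal somite and its muscle precursors, read 36.5 and 21.4 CPM (ratio 1.70, 1.49 to 1.94). HOXD10 and HOXD11, neighbours in the HOXD cluster that act in the posterior body axis and the limb, read 6.94 and 8.03 CPM in members and 1.2 and 1.37 CPM in the others. Their ratios were 5.79 (4.03 to 8.23) and 5.87 (4.20 to 8.15), and they were found in 46 and 49 members. MSX2, FOXF2 and BARX1, homeobox and forkhead factors of mesenchyme, had ratios of 3.41, 3.66 and 3.23.

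Other positional factors were lower in members. EMX2, a homeobox factor of the urogenital tract, forebrain and shoulder girdle, had a lowest, median and highest value of 0, 0 and 3.04 per 10000 UMIs in members and 0, 0.371 and 6.52 in the others, and was 6.08-fold lower (4.77 to 7.88). NR2F1, a nuclear receptor that responds to retinoic acid, read 27.3 and 69.7 CPM (2.55-fold lower, 2.21 to 2.95). HOXC8 and HOXC6 read 2.58 and 6.80 CPM in members and 9.60 and 17.1 CPM in the others, 3.72-fold and 2.51-fold lower. OSR1, a factor of lateral mesoderm, was 2.98-fold lower (2.09 to 4.41). The mesenchymal factors PRRX1 and PRRX2 read 591 and 2056 CPM in members and 654 and 2323 CPM in the others. In the 91 macrophage-gene cells, PAX1, HOXD11, MSX2, BARX1, HOXC6 and OSR1 were each found in 1 cell, HOXD10 in 2, HOXC8 in 3 and FOXF2 in 4. Among members, the share with a UMI without thinning ran from 6.27% for HOXC8 to 48.5% for PAX3 (22.5% and 36.8% of the others). PAX3 was no longer higher among cells low in mitosis transcripts, at 17.2 CPM in 41 members and 19 CPM in the others.

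Over all genes, 3069 besides the 5 of the score reached 50 CPM in members or in the others. At a ratio of 1.5 or more, 83 of them were higher in members (2.7% of those measured) and 106 were lower (3.45%), together 6.16%. Since the members were chosen from the same cells, these counts describe the choice. Of the 83 higher genes, 43 reached 50 CPM in members only, and of the 106 lower genes, 41 in the others only, so the level filter admits such genes because they differ, and counts within lists below share this limit. Setting the median ratio of all measured genes to 1, from a median log2 ratio of 0.07, gave 51 higher and 141 lower genes instead.

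EHD4, an ATPase of endosomal membrane traffic, had the highest ratio. It had a lowest, median and highest value of 0, 2.04 and 7.77 per 10000 UMIs in members and 0, 0.444 and 8.71 in the others. Members read 236 CPM and the others 70.9 CPM, a ratio of 3.32 (3.15 to 3.51). TFPI2, a secreted inhibitor of serine proteases that is bound in the matrix, had 0, 9.15 and 42.7 per 10000 UMIs in members and 0, 2.82 and 37.1 in the others, with a ratio of 2.63 (2.56 to 2.69). MINAR1, a regulator of receptor signalling, had a ratio of 2.62 (59.6 against 22.7 CPM), GCLC, which makes the precursor of glutathione, one of 2.42 (57.5 against 23.8 CPM), and FXYD6, a subunit that modulates the sodium pump, one of 2.34 (108 against 46.0 CPM). In each of these genes the ranges of single cells overlapped, and the medians were higher in members.

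Secreted signals were among the genes higher in members. CSF1, the growth factor of macrophages, had a lowest, median and highest value of 0, 4.92 and 25.7 per 10000 UMIs in members and 0, 1.83 and 28.2 in the others, and a ratio of 2.15 (616 against 287 CPM, 2.08 to 2.22). INHBA, the subunit of activin A, had medians of 2.4 and 0.635 per 10000 UMIs and a ratio of 2.36 (306 against 129 CPM, 2.26 to 2.48). FST, which binds and blocks activin, went the other way and was 5.51-fold lower in members (44.6 against 246 CPM, 4.94 to 6.17). Its median was 0 in members and 0.624 in the others. Of the 12 measured genes of the TGF-beta, activin and BMP list, INHBA, SMAD9 (1.53-fold) and TGFB1 (1.63-fold) were at least 1.5-fold higher and FST was lower. The median log2 ratio of this list was 0.29, against 0.07 for all measured genes. Of 9 measured growth factors and receptors, CSF1, FGF5 (1.91-fold) and BDNF (1.69-fold) were higher and the heparin-binding factor PTN was lower (1.79-fold). ID1, an inhibitor of bHLH factors and a target of BMP signals, read 1412 and 898 CPM (ratio 1.57, 1.54 to 1.60) and was the only 1 of 8 measured bHLH factors and inhibitors at least 1.5-fold apart.

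Other genes with a ratio near or above 2 were RBPJ, the DNA-binding partner of Notch (2.12, 76.5 against 36.1 CPM), CSPG4, the NG2 proteoglycan of pericytes and progenitors (2.09, 81.8 against 39.2 CPM), and the actin-severing protein GSN (2.0, 488 against 244 CPM). APOA1, the main protein of high-density lipoprotein, had a ratio of 2.29 (107 against 46.8 CPM), with values between 0 and 21.7 per 10000 UMIs and a median of 0 in members, and it was found in 27.7% of thinned members, 17.5% of the others and 3.30% of the macrophage-gene cells. MGST1, a membrane glutathione transferase, had a ratio of 2.17, and RCAN1, an inhibitor of calcineurin, one of 2.06. EHD4, GSN, MGST1, RBPJ and GCLC were also common in the macrophage-gene cells, found in 86.8%, 91.2%, 48.4%, 46.2% and 34.1% of them after thinning against 75.9%, 89.8%, 47.5%, 45.5% and 32.3% of members. The summed macrophage markers were lower in members than in the others, as given above. That list includes the macrophage genes that the rule limits in every cell of both groups. The part of macrophage RNA in these differences was not tested.

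**Figure D2:**
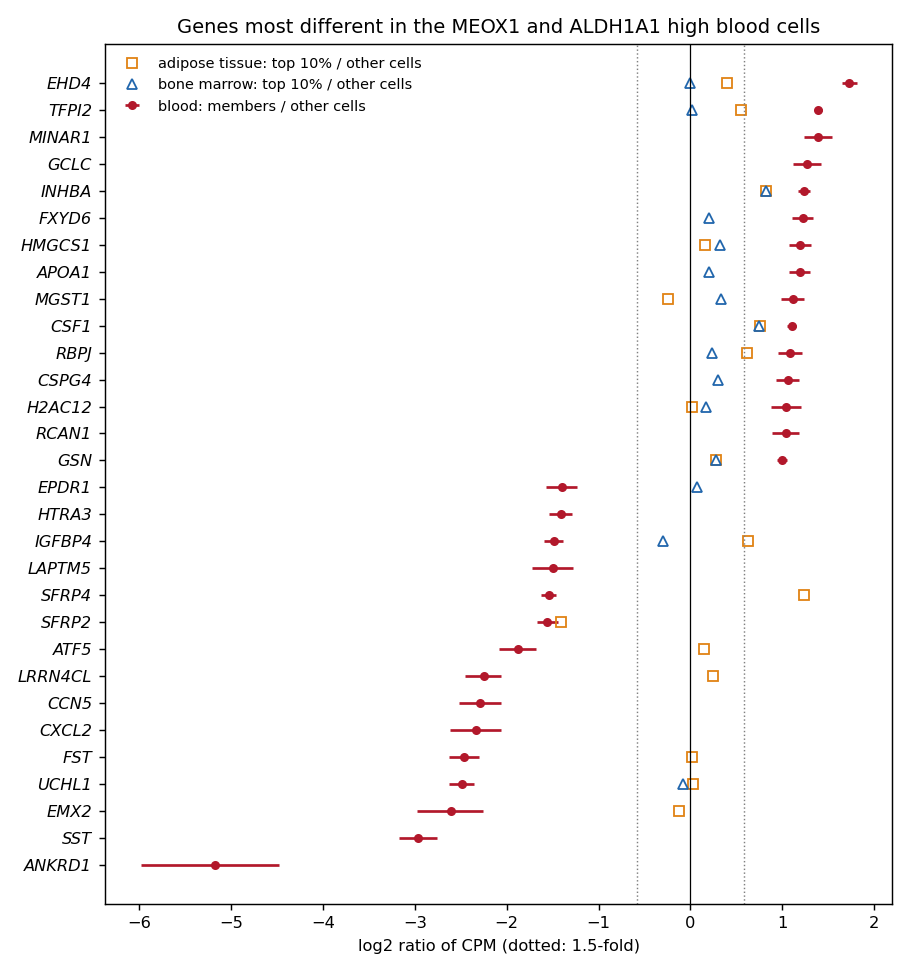
Ratio of CPM (log2, x axis) of the 15 genes highest and the 15 genes lowest in members, 1 per line, between the members and the other blood cells (filled circles, bars are 95% intervals covering counting error), with the top 10% by the same score in adipose tissue (squares) and bone marrow (triangles) where the gene reached 50 CPM there. The blood ratios run from 3.32 for EHD4 to 36.2-fold lower for ANKRD1, and INHBA and CSF1 are past 1.5-fold in all 3 libraries.

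Of the genes of sterol synthesis, 2 were at least 1.5-fold higher. HMGCS1, the entry enzyme of the mevalonate pathway, read 92.8 and 40.5 CPM (ratio 2.29, 2.10 to 2.49), and MSMO1, a later enzyme, had a ratio of 1.54. Both reached 50 CPM in members only, and the other 3 measured genes of the list were within 1.5-fold. The count was 1 with composition scaling, with scoring after thinning, with the top 20% as members, without ALDH1A1 in the score and within either group of cells by S-phase UMIs, and 5 with a level filter of 20 CPM. HMGCS1 was also found in 27.5% of the thinned macrophage-gene cells, against 39.3% of members and 20.8% of the others.

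More members than other cells carried transcripts of DNA replication. After thinning, 72.3% of members (66.9 to 77.2%) and 40.5% of the others (38.7 to 42.4%) had over 0.2% of their UMIs in the 30 genes of the S-phase list. Without thinning the shares were 72.6% and 39.7%. Of the 19 measured genes of the list, 6 were at least 1.5-fold higher in members, among them the helicase subunits MCM2 (1.5), MCM3 (1.59), MCM4 (1.64) and MCM7 (1.55) and the methylation maintenance factor UHRF1 (1.69). The ratio was above 1 for all 19, with a median log2 of 0.46. Of 8 measured histone genes, H2AC12, H2AC20, H2BC15 and H2AZ1 were at least 1.5-fold higher, the first 3 of which reached 50 CPM in members only. Whether histone genes share reads was not tested, so single histones are uncertain. Of the 23 measured genes of mitosis, 0 were 1.5-fold apart and the median log2 ratio was 0.12. The share of cells with over 0.1% of UMIs in mitosis genes was 85.1% of members and 73.1% of the others after thinning. Of these 6 and 4 genes, the counts were 1 and 0 when cells were scored after thinning, when the top 20% were taken, and when ALDH1A1 was left out of the score.

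ANKRD1, a stress- and stretch-responsive cofactor, was nearly missing from the members. It had 16 UMIs in members (2.18 CPM) and 6118 in the others (78.9 CPM), 36.2-fold lower (22.3 to 63.4). Its lowest, median and highest values were 0, 0 and 0.988 per 10000 UMIs in members and 0, 0 and 35.9 in the others. After thinning it was found in 0.990% of members, 13.7% of the others and 1.10% of the macrophage-gene cells, so the share in members was near that in the macrophage-gene cells. ANKRD1 belongs to a list of genes linked to the stretch-sensing factor YAP, and 5 of its 7 measured members were at least 1.5-fold lower. The further 4 were the matrix-bound factors CCN1 (1.54-fold) and CCN2 (1.58-fold), the BMP-binding protein CRIM1 (2.5-fold) and DLC1 (1.54-fold). The median log2 ratio of the list was -0.62. The count was 2 when the ANKRD1 set was left out of the other cells, without MEOX1 in the score and with the top 20% as members, and 3 without ALDH1A1, IGFBP5 or ADAMTS1 in the score, with scoring after thinning and among cells low in S-phase UMIs.

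SST, the peptide hormone somatostatin, was 7.79-fold lower in members (25.6 against 199 CPM, 6.74 to 9.04), with a highest value of 37.2 per 10000 UMIs in members and 129 in the others. UCHL1, a deubiquitinating enzyme best known from neurons, was 5.61-fold lower (60.7 against 340 CPM, 5.11 to 6.17). It had a median of 0 per 10000 UMIs in members and 2.88 in the others, and was found in 14.5% of thinned members, 71.9% of the others and 19.8% of the macrophage-gene cells. CCN5, a matricellular protein of the CCN family, was 4.88-fold lower and LRRN4CL, a membrane protein, 4.76-fold lower. The Wnt-binding proteins SFRP2 and SFRP4 were 2.94-fold and 2.91-fold lower. SFRP4 had a lowest, median and highest value of 0, 0 and 73.1 per 10000 UMIs in members and 0, 3.03 and 50.9 in the others, so the highest member was above every other cell while most members held none. Of 6 measured Wnt genes, SFRP2, SFRP4 and the transcription factor TCF7L2 were lower and the ligand WNT5B and the receptor LGR4 higher, the last 2 by 1.53-fold each.

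Several matrix genes were lower and tenascin was higher. COL3A1, the fibrillar collagen of reticular fibres, had a lowest, median and highest value of 0, 1.83 and 79.3 per 10000 UMIs in members and 0, 11 and 87.4 in the others (2.60-fold lower, 2.52 to 2.69). COL1A1, the main collagen of connective tissue, had 1.75, 23.5 and 202 in members and 0.845, 55.1 and 243 in the others (1.86-fold lower, 3355 against 6225 CPM). With COL5A2 (2.22-fold) these were the 3 of 10 measured collagens at least 1.5-fold lower, and 0 were higher. All collagens together took a median of 0.668% of a member's UMIs and 1.24% of another cell's. Fibronectin (FN1, 1.79-fold), fibrillin (FBN1, 1.82-fold), THBS1 (2.36-fold), the collagen crosslinkers LOX (1.92-fold) and LOXL2 (2.11-fold) and the proteoglycan DCN (1.60-fold) were lower too. TNC, tenascin-C, a matrix protein of developing and healing tissue, was 1.79-fold higher instead, with medians of 4.33 and 0.858 per 10000 UMIs. Of 14 measured matrix glycoproteins, 4 were at least 1.5-fold lower and 2, TNC and LTBP3, were higher. The ratio was above 1 for 7 of the 14, with a median log2 ratio of -0.06. Of 12 measured genes of crosslinking and collagen processing 2 were lower, and of 5 small leucine-rich proteoglycans 1, with 0 higher in both lists. Of 14 measured contractile genes, MYL9 (2.23-fold), ACTA2 (1.69-fold) and ACTG2 (2.41-fold) were lower, and 1 of the 14 had a ratio above 1.

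Genes of the integrated stress response, which cells use to cope with amino acid shortage and misfolded protein, were lower. Of 15 measured genes, 9 were at least 1.5-fold lower and 0 higher, with a median log2 ratio of -0.71, and 1 of 23 genes with at least 5 CPM had a ratio above 1. ATF4, the master factor of the response, had medians of 3.24 per 10000 UMIs in members and 6.11 in the others (1.63-fold lower, 378 against 618 CPM). Its relative ATF5 was 3.68-fold lower, the proapoptotic factor DDIT3 1.91-fold, the asparagine synthetase ASNS 1.77-fold and the chaperone HSPA5 1.65-fold. SLC7A5, ALDH1L2, DDIT4 and NUPR1 were the other 4. The count of lower genes was 3 with the top 20% as members and 1 without cells over 0.1% mitosis UMIs. It was 7 with scoring after thinning and 12 with composition scaling.

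Of 10 measured chemokines and cytokines, 4 were at least 1.5-fold lower and 1 was higher, 5 had a ratio above 1, and the median log2 ratio was -0.07. CXCL5 had medians of 4.34 and 12.6 per 10000 UMIs (2.23-fold lower), CXCL2 was 5.03-fold lower, CXCL8 2.12-fold and the cytokine IL6 2.54-fold, and CSF1 was the higher 1. The count of lower genes was 2 among cells low in S-phase UMIs, without cells over 0.1% mitosis UMIs and with 4 other blood sets left out of the other cells. CXC chemokine genes are related in sequence, and whether they share reads was not tested. CXCL5 and CXCL2 were found in 97.8% and 70.3% of the thinned macrophage-gene cells, LAPTM5, a lysosomal gene of leukocytes that was 2.82-fold lower in members, in 97.8%, and THBS1 in 86.8%. The macrophage markers themselves summed to fewer CPM in members, and their part in these differences was not tested.

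**Figure D3:**
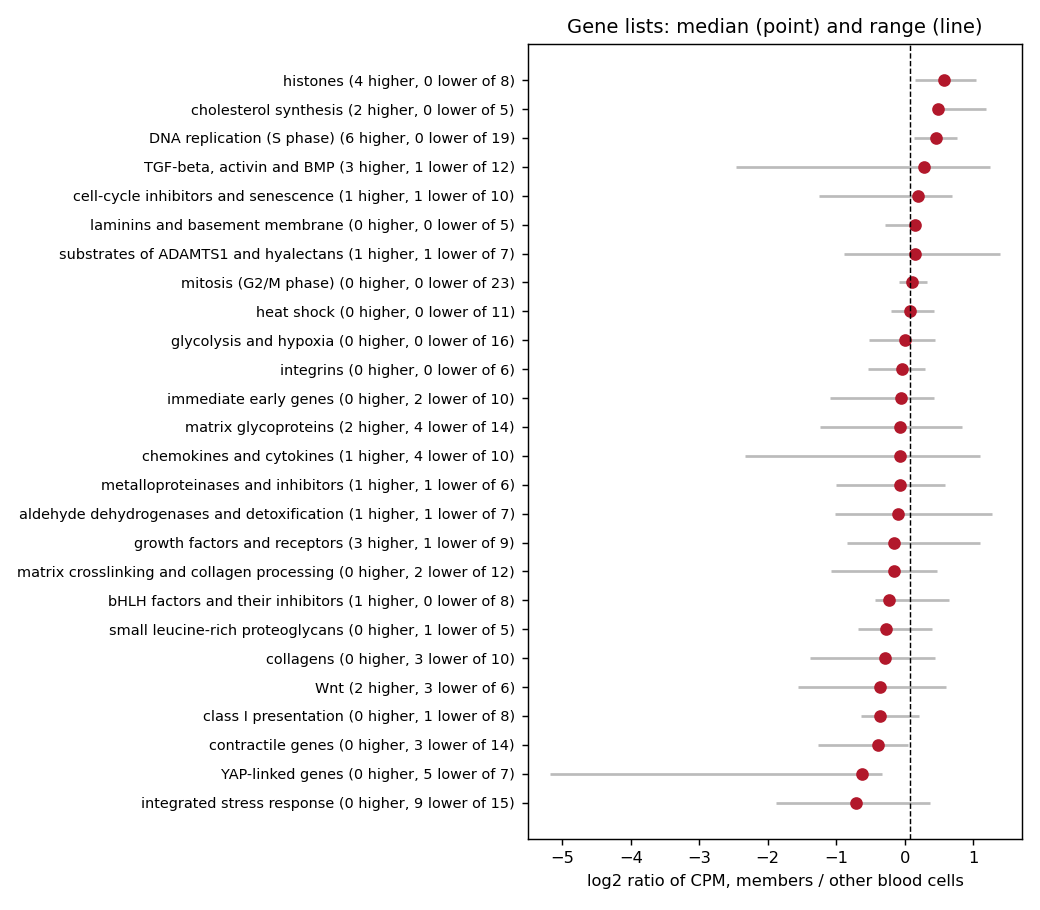
Gene lists with at least 5 measured genes, 1 per line, with the median (point) and the range (line) of the log2 ratio of CPM between members and the other blood cells (x axis); the dashed line is the median of all 3069 measured genes, 0.07. Histones and S phase lie to the right of the line at 0.58 and 0.46, and YAP-linked and stress-response genes to the left at -0.62 and -0.71.

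Since members carried more S-phase transcripts, the comparison was repeated, as a choice made after seeing the data, among cells with at most 0.2% of UMIs in that list (83 members and 1647 others) and among cells above it (220 and 1083). The leading genes kept their sides in both. EHD4 had a log2 ratio of 1.30 among low and 1.52 among high cells, TFPI2 1.07 and 1.22, CSF1 1.11 and 1.04, INHBA 1.08 and 1.07, and ANKRD1 -5.16 and -5.28. HMGCS1 and APOA1 were further apart among low cells, at 1.45 and 1.92 against 0.87 and 1.03. Matrix genes differed in this. COL3A1 had log2 ratios of -0.44 among low and -1.78 among high cells, COL1A1 -0.36 and -0.91, and FN1 -0.26 and -0.87. THBS1 was similar in both, at -1.02 and -1.16, as were LOX at -0.75 and -0.88 and TNC at 1.04 and 0.91, while the protease inhibitor TIMP3 was further apart among low cells, at -1.44 against -0.49. Of the collagens, 0 were at least 1.5-fold lower among low cells and 3 among high cells, and of the stress-response genes 1 and 10. Of the S-phase genes, 0 were 1.5-fold higher within either group. The cells were split by the summed UMIs of this same list, so smaller ratios of its genes follow in part from the split.

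A further comparison kept only cells with at most 0.1% of UMIs in the mitosis list, which left 41 members and 717 others. The log2 ratio there was 1.07 for EHD4, 0.91 for TFPI2, 1.01 for CSF1, 1.56 for HMGCS1 and -4.28 for ANKRD1. Some leading higher genes were within 1.5-fold there, with log2 ratios of 0.55 for INHBA, 0.27 for RCAN1, -0.064 for GCLC and -0.13 for H2AC12. Among the lower genes, the log2 ratio was -0.32 for COL1A1, -0.18 for COL3A1, -0.02 for FN1, -0.20 for SFRP4 and -0.19 for ATF4, all within 1.5-fold. THBS1 at -1.22, LOX at -0.74, TIMP3 at -1.06 and the stress-response factor ATF5 at -1.14 were past 1.5-fold lower there, and TNC at 1.36 was higher.

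**Figure D4:**
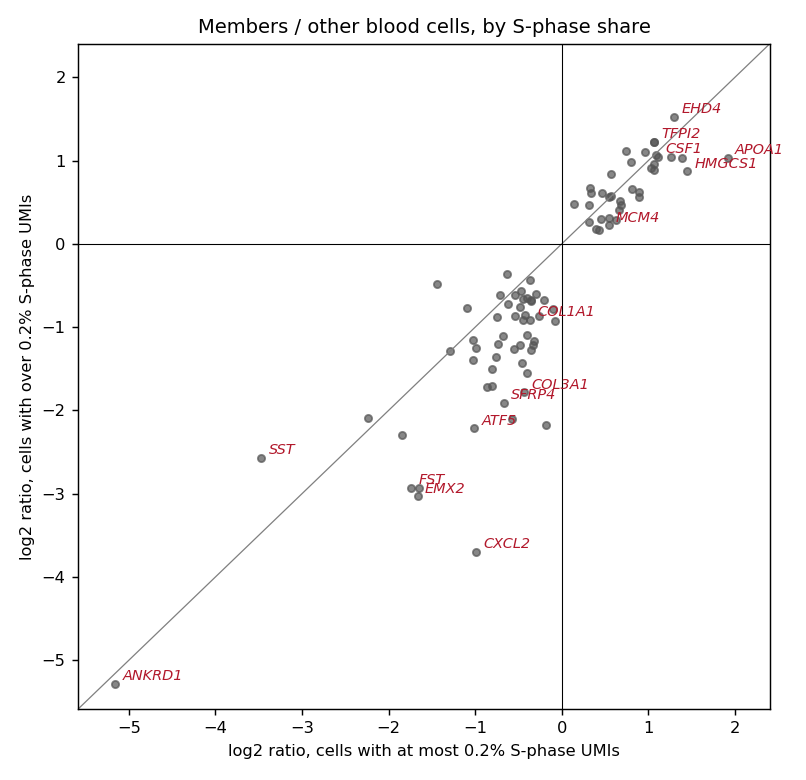
Log2 ratio of CPM, members over other blood cells, for each named gene (points) among cells with at most 0.2% of UMIs in the S-phase list (x axis) and among cells above it (y axis); the diagonal marks equal ratios. EHD4, TFPI2, CSF1 and ANKRD1 lie near the diagonal, while COL3A1 (-0.44 and -1.78), COL1A1, SFRP4 and CXCL2 lie below it.

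When all 3033 blood cells were ordered by score and split into 10 equal groups, genes took different courses. TNC read 165 CPM in the lowest group, 290 CPM in the fifth, 489 CPM in the ninth and 579 CPM in the members, which form the last group. CSF1 read 170, 323, 428 and 616 CPM at the same points, and EHD4 52.3, 62.0, 129 and 236 CPM. So most of the TNC difference lay below the members, and most of the EHD4 difference in the last groups. COL3A1 read 1091 CPM in the lowest group, 1311 CPM in the fifth and 1017 CPM in the ninth, against 483 CPM in the members. SST was highest in the eighth group and read 108 CPM in the ninth and 25.6 CPM in the members. ANKRD1 was highest in the second group and read 145 CPM in the lowest, 50.8 CPM in the fifth, 23.0 CPM in the ninth and 2.18 CPM in the members.

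**Figure D5:**
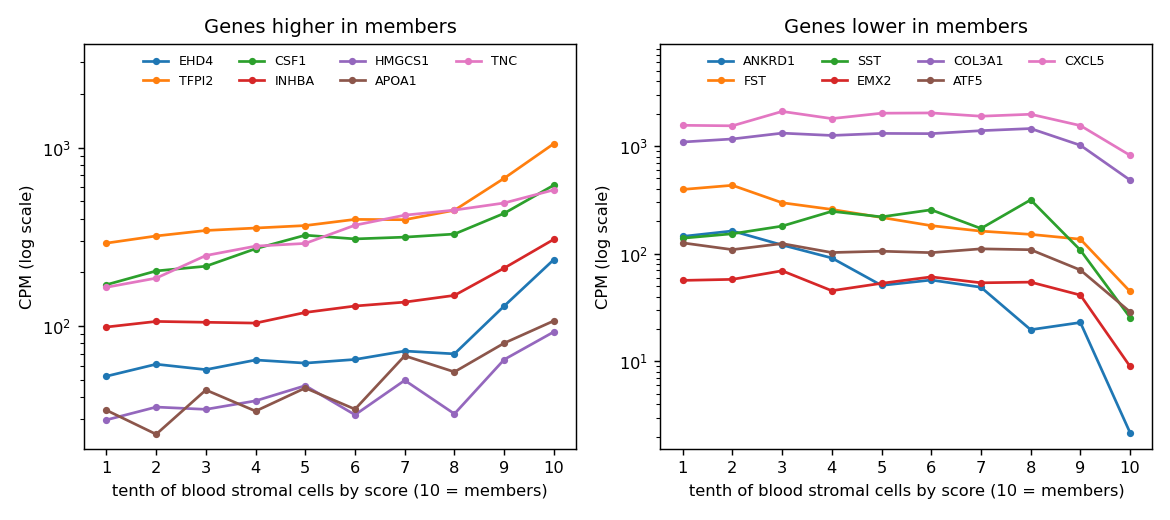
CPM of summed UMIs (log axis) of 7 genes higher (left) and 7 genes lower (right) in members, in 10 equal groups of the 3033 blood stromal cells ordered by score (x axis; the last point is the members). EHD4 goes from 62.0 CPM in the fifth group to 236 CPM in the members, and COL3A1 from 1017 CPM in the ninth to 483 CPM.

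Clustering of the blood cells, which used the same genes and is no independent evidence, placed the members mostly together. Of 303 members, 264 (87.1%) were in 1 of 7 clusters, of 492 cells, led by MEOX1, ALDH1A1, MDFI, IGFBP5 and EHD4, and members made up 53.7% of it. A further 18 were in a cluster led by ASPN, SST and SFRP4, 8 in one led by CA4 and CXCL2, 7 in a mitotic cluster, 5 in one led by LRRN4CL and TIMP3, and 1 in the cluster of 541 cells led by ANKRD1. ANKRD1 read 2.30 CPM in the cluster of most members, 6.87 CPM in the CA4 cluster and 29.0 to 238 CPM in the rest. SST read 9.21 CPM in the cluster of most members, 3.78 CPM in the LRRN4CL cluster and 31.6 to 379 CPM in the rest.

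The members were also set against other sets of blood cells, each the top 10% by its own short score. They shared 1 cell with the ANKRD1, NES and BASP1 set (0.330%), 5 with the SST, SFRP4 and ASPN set, 6 with the LRRN4CL, TIMP3 and MFAP5 set, 30 with the mitotic set (9.90%), 52 with the CXCL12, CCL2 and INHBA set (17.2%, 13.1 to 21.9%) and 148 with the IGFBP5, TINAGL1 and INHBA set (48.8%, 43.1 to 54.6%). Each set held 303 cells. Of the other cells, 11.1%, 10.9%, 10.9%, 10%, 9.19% and 5.68% were in these sets, in the same order. The share of members in the mitotic set was thus near that of the other cells. By the full mitosis list, 85.1% of members and 73.1% of the others had over 0.1% of UMIs after thinning. The last set is scored by leading genes of bone marrow cells and shares IGFBP5 with the members' own score, and it read 107 CPM of MEOX1 and 572 CPM of IGFBP5. MEOX1 read 96.9 CPM in the CXCL12 set and between 6.21 and 40.6 CPM in the other 4. Against the CXCL12 set, with shared cells left out, members read 228 against 86.3 CPM of EHD4, 597 against 235 CPM of TNC, 24.3 against 470 CPM of SST and 20.9 against 263 CPM of IL6.

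The same 5-gene score was applied to the other 2 cultures, which took no part in choosing the blood members but share the donor. Of 6088 adipose cells, 2.68% (2.29 to 3.11%) reached the blood threshold, and of 8297 bone marrow cells 5.47% (4.99 to 5.98%). After thinning every cell to 4000 UMIs, with the threshold reset to 0.609 from the thinned blood cells, the shares were 6.65% in adipose tissue, 12% in bone marrow and, as the reset fixes, 10.1% in blood. The make-up of the score differed too. Over all its cells adipose tissue read 136 CPM of ALDH1A1 and 5.48 CPM of MDFI, bone marrow 22.1 and 158 CPM, and blood 44.3 and 18.1 CPM.

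The top 10% by score in each of these cultures differed from their neighbours in few genes. In adipose tissue (609 cells), 18 of 3044 measured genes were at least 1.5-fold higher (0.591%) and 2 lower (0.0657%). In bone marrow (830 cells), 3 of 2964 were higher (0.101%), namely CSF1, INHBA and the chemokine CCL2, and 0 were lower (0%). CSF1 had a ratio of 1.69 in adipose tissue (2381 against 1409 CPM, 1.67 to 1.71) and 1.67 in bone marrow (853 against 509 CPM, 1.63 to 1.72). INHBA had 1.76 in both (1.71 to 1.82 and 1.69 to 1.85). EHD4, the leading gene in blood, had 1.32 in adipose tissue and 0.998 in bone marrow, TFPI2 1.47 and 1.01, COL3A1 1.01 in both, and COL1A1 0.951 and 0.861. Of the 83 genes higher in blood members, 57 were measured in adipose tissue, where 6 were at least 1.5-fold higher, and 65 in bone marrow, where 2 were. The ratio was above 1 for 37 of the 57 and for 55 of the 65. Their median log2 ratios were 0.16 in adipose tissue and 0.15 in bone marrow, against -0.006 and 0.006 for all measured genes. Of the 106 lower genes, 66 and 72 were measured, and 1 and 0 were at least 1.5-fold lower. The ratio was not above 1 for 32 of the 66 and for 52 of the 72. In adipose tissue 3 of the 106 lower genes, TIMP3, SFRP4 and IGFBP4, were at least 1.5-fold higher. PAX1 had 0 UMIs in the cells of both of these cultures. BARX1 read 89.9 and 88.2 CPM in the top 10% and the rest of bone marrow, against 14.0 CPM in blood members. CYP26B1 read 19.4 and 12.7 CPM in the top 10% and the rest of adipose tissue, against 9.93 CPM in blood members. HOXD10, HOXD11, MSX2 and FOXF2 read at most 2.53, 2.69, 8.03 and 8.80 CPM in either group of these cultures.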

How the data were processed

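The deposited values are UMI counts per gene and barcode, which the authors made with Cell Ranger 6.1.1 and the build ARS-UCD1.2, as the submitters' processing notes list them. Per the file headers the matrices were written by Cell Ranger 4, and which version made them is unsettled. The unfiltered matrices held 21861 genes. Cells were barcodes with at least 10% of the 99th percentile UMI total of the top 3000 barcodes. Counts were summed over members and over the other cells and scaled to CPM. A gene was measured at 50 CPM in either group and called at a ratio of 1.5. Ratios carry exact 95% conditional binomial intervals, and shares Clopper-Pearson ones, for counting error alone. No test was made, as each tissue has a single library.

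The members and the gene lists were chosen with earlier results of these data known. The text names the 5 genes of the score, the 15 largest ratios each way among genes with a symbol that are neither mitochondrial nor ribosomal, list genes past 1.5-fold, relatives of the 5 genes and cell type markers. Genes close in sequence may share reads. Doublets and free RNA were not removed. Alternatives varied the score, the share taken, thinning, scaling, filters and the cells kept. The code for ratios was tested on simulated data. Python 3.11.15, numpy 2.4.6, scipy 1.17.1, pandas 2.3.3, scanpy 1.11.5, leidenalg 0.10.2, igraph 0.11.9 and matplotlib 3.10.9 were used.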

Additional observations from a re-analysis of the deposited data

Results flagged for a closer look

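Among the 30 genes with the largest differences in blood, IGFBP4 and SFRP4 went in opposite directions in blood and adipose tissue. The log2 ratio of IGFBP4, top 10% by the score over the other cells, was 0.63 in adipose tissue and -1.49 in blood. That of SFRP4 was 1.24 in adipose tissue and -1.54 in blood. Each library is 1 sample, and the difference between them was not tested.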

How the results depend on the processing

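Against 83 higher and 106 lower genes, taking the top 20% as members gave 31 and 45, a filter of 20 CPM 167 and 186, no level filter 1261 and 1426, and a ratio of 2 in place of 1.5 gave 15 and 40. Scoring after thinning gave 52 higher genes, composition scaling 51 higher, and leaving out cells with over 0.1% mitosis UMIs 64 lower. The share at the blood threshold, 2.68% in adipose tissue and 5.47% in bone marrow, was 6.65% and 12% after thinning to 4000 UMIs with the threshold reset from thinned blood cells to 0.609, 2.25% and 6.30% without MEOX1 in the score, 1.49% and 9.93% without ALDH1A1, 4.14% and 1.48% without MDFI, 10.9% and 23.3% without IGFBP5, and 3.45% and 4.72% without ADAMTS1. Of 90 named genes, 79 kept their direction in all 19 settings tried on single genes, planned or added, and 26 stayed past 1.5-fold in all of them. The 11 that turned did so when cells with over 0.1% mitosis UMIs, 86.5% of members and 73.7% of the others, were left out. Their log2 ratios were then -0.064 for GCLC, -0.13 for H2AC12, -0.11 for FGF5, -0.12 for UHRF1, -0.60 for H2BC15, 0.022 for TCF7L2, 0.078 for DCN, 0.28 for NUPR1, 0.00094 for PTN, 0.11 for LOXL2 and 0.53 for ACTG2. That setting keeps 41 members, and the cause was not tested. The splits by S-phase UMIs and the settings that leave other blood sets out were chosen after seeing the data. No paired analysis was possible because each tissue has 1 library. Depth limits the low-level genes most, since many rest on under 100 UMIs in members.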

Other observations

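Several genes under 50 CPM, chosen after their values were seen, had higher ratios than any measured gene outside the score. SYCP3, a protein of the meiotic synaptonemal complex, had 152 UMIs in 99 members and 136 UMIs in 92 other cells, a ratio of 11.8 (9.30 to 15), and was found in 5 of 91 macrophage-gene cells. IGSF10, a secreted immunoglobulin-domain protein, had 51 UMIs in 36 members and 40 UMIs in 36 others, a ratio of 13.5 (8.72 to 20.9). GSC, a homeobox factor of the early embryo and the head and limb mesenchyme, had 56 UMIs in members and 90 in the others (ratio 6.57, 4.62 to 9.27). TFPI, a relative of TFPI2, had 95 and 211 UMIs (4.75, 3.69 to 6.08). In the adipose culture SYCP3 read 1.42 CPM in the top 10% by score and 1.24 CPM in the rest, and in bone marrow 1.23 and 1.07 CPM. GSC read 23.5 and 21.4 CPM in the adipose culture and 13.5 and 12.3 CPM in bone marrow, against 7.62 CPM in blood members. IGSF10 and TFPI read at most 0.436 and 2.69 CPM in either group of these cultures. WNT2B, a Wnt ligand, was 13.7-fold lower in members (6.27 to 37.5), with 6 UMIs in members and 868 in the others.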
